A study of Homo sapiens with 4 samples.

Results

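The 10 genes described here are FOS, FOSB, FOSL2, JUN, JUNB, JUND, EGR1, IER2, IER5 and DUSP1, which encode subunits of the transcription factor AP-1 or are immediate early genes. They were chosen by name, with no measured value in the rule, and all 10 have a row among the 29833 genes of the expression file. AP-1 is a dimer of a JUN protein with a FOS protein or with another JUN protein, and it binds the short DNA element called TRE. Immediate early genes are transcribed within minutes of a stimulus without new protein synthesis, through factors such as SRF and CREB that are already in the cell and are switched on by MAP kinases. Their mRNAs are short-lived as a rule, and DUSP1, a phosphatase of MAP kinases, closes the loop by switching the kinases off.

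The samples were 4 RNA-seq libraries of Reh-6-MPR, derived from Reh, an established line of human B-cell acute lymphoblastic leukemia (B-ALL), and made resistant to 6-mercaptopurine (6-MP) by stepwise exposure to it. All 4 libraries carry the genotype label WT and were harvested after 48 h, with PBS as vehicle, with histidine at 4 mM, with 6-MP at 1.0 μg/mL, or with histidine and 6-MP together, called the combined treatment below. Whether the resistant line is 1 clone is not given in the sources used here. Since each treatment has 1 library, differences have no replicate check and no p-value is given, and a 48 h harvest says nothing of the first hours in which these genes usually respond. In RNA from a whole culture, fewer cells that express a gene and less RNA per cell cannot be told apart.

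Levels are FPKM as deposited, that is, reads per length of the gene and per total of the library. The values step in whole reads, which were recovered, and the library totals behind them were 12899122 reads for the combined treatment, the lowest, to 15486376 for histidine, the highest. The recovered reads summed to slightly more than these totals, from 100.42% in the combined treatment to 100.44% in vehicle. The source of this excess was not tested. Differences are given either as differences of log2(FPKM + 1), on which a threshold of 1 was applied to the 12750 genes whose mean FPKM reached 1, or as log2 ratios of reads per library total. The 95% intervals of levels and read ratios are exact Clopper-Pearson intervals that cover counting error only and compare libraries, not treatments. Over all 12750 genes the median difference of log2(FPKM + 1) between the combined treatment and vehicle was 0.13, against 0.015 for histidine and 0.004 for 6-MP. All 7 B lineage markers with a row were expressed, with CD79A at 246 FPKM and DNTT at 557 FPKM in vehicle, while HBB of red cells had 0 or 1 read in every library. The 4 myeloid markers summed to 28.8 FPKM in vehicle, 31.2 in histidine, 27.0 in 6-MP and 43.7 in the combined treatment, nearly all of it MPO, with CD14 at 1 to 4 reads and LYZ at 1 to 31. The stromal gene COL1A1 had 0.869, 1.05, 1.03 and 2.04 FPKM. The part of these genes' cells in the results was not tested.

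JUN and IER5 are the 2 genes past the threshold in the combined treatment, and JUND and FOS follow other patterns over the libraries. EGR1 is the one with matches to the SRF element within the 250 bases searched. For these reasons the promoters of these 5 genes are shown first. Each is the 250 bases before the RefSeq start on GRCh38.p14, written 5′ to 3′ on the strand of the gene, at chr1:58784048-58784297 (minus strand) for JUN, chr1:181088450-181088699 (plus) for IER5, chr19:18281623-18281872 (minus) for JUND, chr14:75278578-75278827 (plus) for FOS and chr5:138465229-138465478 (plus) for EGR1. Capitals mark partial CREs (TGACG, or CGTCA on the other strand), the AP-1-like letters TGACATCA, CArG boxes and TATAAA.
JUN: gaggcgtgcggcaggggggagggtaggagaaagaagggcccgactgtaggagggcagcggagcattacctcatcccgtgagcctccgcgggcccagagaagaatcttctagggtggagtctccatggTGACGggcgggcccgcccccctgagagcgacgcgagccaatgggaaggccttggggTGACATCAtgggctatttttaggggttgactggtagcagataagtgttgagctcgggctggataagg
IER5: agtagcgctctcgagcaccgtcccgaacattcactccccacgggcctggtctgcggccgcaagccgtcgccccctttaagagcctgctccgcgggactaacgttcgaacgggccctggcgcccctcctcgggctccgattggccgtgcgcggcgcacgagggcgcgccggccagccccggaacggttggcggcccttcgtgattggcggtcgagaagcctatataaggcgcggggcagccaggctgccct
JUND: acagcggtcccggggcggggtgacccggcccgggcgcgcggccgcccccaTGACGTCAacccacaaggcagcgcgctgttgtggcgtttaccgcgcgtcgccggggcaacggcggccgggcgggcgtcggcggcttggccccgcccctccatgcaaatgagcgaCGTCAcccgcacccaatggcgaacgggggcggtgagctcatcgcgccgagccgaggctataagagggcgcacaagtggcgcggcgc
FOS: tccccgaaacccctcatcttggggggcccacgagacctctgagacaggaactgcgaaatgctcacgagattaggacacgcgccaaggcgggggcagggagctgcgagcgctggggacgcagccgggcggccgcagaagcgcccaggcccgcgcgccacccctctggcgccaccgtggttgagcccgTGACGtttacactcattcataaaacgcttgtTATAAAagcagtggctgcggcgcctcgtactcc
EGR1: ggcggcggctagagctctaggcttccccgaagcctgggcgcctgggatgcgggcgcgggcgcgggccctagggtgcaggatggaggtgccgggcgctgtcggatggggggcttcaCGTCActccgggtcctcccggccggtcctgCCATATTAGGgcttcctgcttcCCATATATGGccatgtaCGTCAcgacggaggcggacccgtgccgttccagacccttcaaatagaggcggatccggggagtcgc

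A partial CRE, TGACG or CGTCA, is only an end of the full element bound by CREB and ATF proteins. It lay in 9 of the 10 promoters, all but that of IER5. It lay in 21.2% of all 35116 RefSeq promoters of the same length and in 29.4% of the 10782 whose GC content was in the range of these genes, 62.0% to 74.8%. The full CRE, TGACGTCA, which contains the partial CRE on both strands, lay only in JUND and DUSP1 among the 10. It lay in 1.65% of all promoters, or 2.74% in the same GC range. The TRE, TGACTCA or TGAGTCA, lay in none of the 10 and in 4.2% of all, or 2.22% of those in the same GC range. The AP-1-like letters TGACATCA lay in JUN, 67 to 60 bases before its start, and in 2.37% of all promoters, or 0.816% in the same GC range. The CArG box, bound by SRF, lay in EGR1 alone, with 2 matches, and in 1.16% of all, or 0.733% in the same GC range. TATAAA, a form of the TATA box, lay in FOS, FOSB, JUNB and DUSP1, 25 to 33 bases before the start. It lay in 10.7% of all promoters, or 2.61% in the same GC range. Only these exact letters were searched, so another form of the box, for example in IER5, would not be marked. The GC box of Sp1, GGGCGG, lay in 7 of the 10 and in 42.6% of all promoters, or 73.6% of those in the same GC range. The EGR1 element, GCGTGGGCG or GCGGGGGCG, lay in none of the 10 and in 5.37% of all, or 7.64% in the same GC range. All motifs were searched on both strands, a match is not a bound site, and the windows hold no bases downstream of the start.

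JUN and IER5 were the genes that stood out in the combined treatment, each at more than 2 times its level in any of the other 3 libraries. FOS and FOSL2 were higher as well but at low levels, JUND and DUSP1 were higher than in vehicle by smaller ratios, and JUNB and IER2 were not. Of the 10 genes, 6 reached this mean of 1 FPKM and entered the threshold counts, namely JUN, JUNB, JUND, IER2, IER5 and DUSP1, and FOS, FOSB, FOSL2 and EGR1 did not. Against vehicle, 2 of these 6 (JUN and IER5) lay past the threshold in the combined treatment, both higher, where 6.53% of all 12750 genes lay past it and 5.01% lay past it on the higher side. Against histidine it was 1 of 6, IER5, beside 5.55% of all genes, and against 6-MP it was 2 of 6, JUN and IER5, beside 6.02%. Histidine alone and 6-MP alone took none of the 6 past the threshold against vehicle, beside 1.33% and 1.18% of all genes. These 3 comparisons of the combined treatment share its library, and 3 comparisons share that of vehicle.

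By read ratios, which need no minimum level, 6 of the 10 genes had an interval above 0 for the combined treatment against vehicle (FOS, FOSL2, JUN, JUND, IER5 and DUSP1) and none had one below, although those of JUNB and IER2 did under median-ratio scaling. Among the 21510 genes whose mean reached 0.1 FPKM, the interval left out 0 in 47.3%, with 34.1% above it and 13.2% below it, so intervals that leave out 0 were common in this comparison. Against histidine it was 5 of 10, without DUSP1, beside 46.6%. Against 6-MP the intervals of FOS, FOSL2, JUN, IER5 and DUSP1 lay above 0 and that of JUNB below it, also beside 47.3%. For histidine alone, 2 of 10 intervals left out 0, beside 15.0%, and for 6-MP alone 3 of 10, beside 12.6%.

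**Figure D1:**
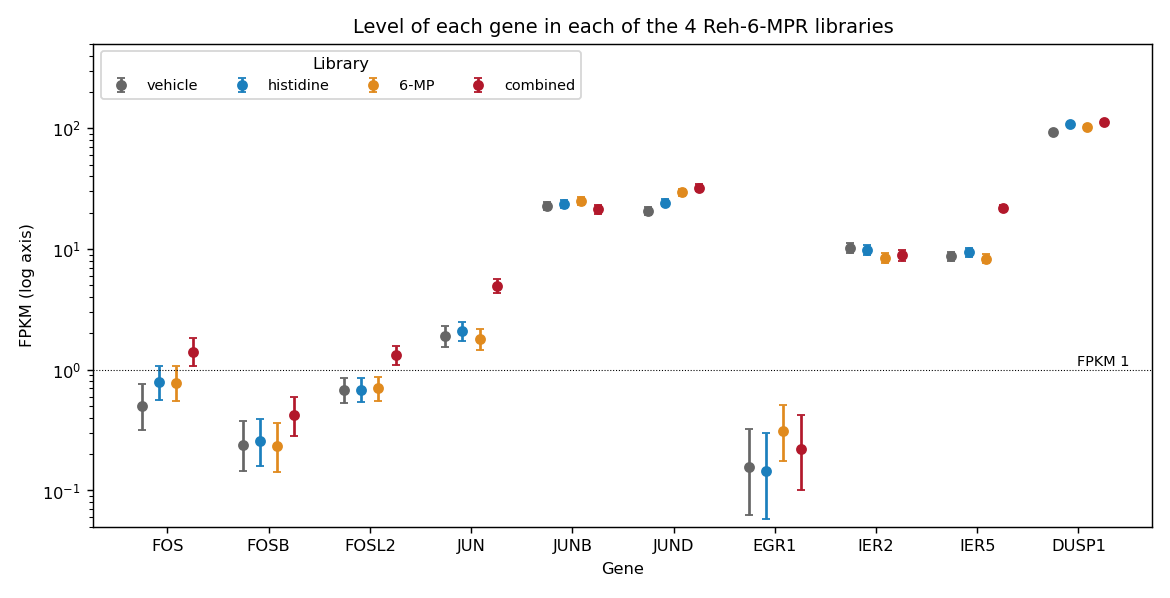
FPKM of each gene (log axis) in each of the 4 libraries, with vertical bars for 95% Clopper-Pearson intervals of the reads. IER5 and JUN in the combined treatment, at 21.7 and 4.98 FPKM, sit above their other 3 points with no overlap of intervals, while FOS, FOSB, FOSL2 and EGR1 lie near or under 1 FPKM.

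The FOS proteins pair with JUN proteins and cannot bind DNA as dimers of their own. All 3 FOS family genes were low in these cells. FOS (ENSG00000170345, chr14:75278826-75282230, plus strand) had 0.504 FPKM in vehicle, 0.790 in histidine, 0.777 in 6-MP and 1.41 in the combined treatment, from 23, 39, 38 and 58 reads. The combined treatment was the highest and vehicle the lowest, with both single agents between them. The read ratio of the combined treatment to vehicle was 2.80-fold, or 1.48 on the log2 scale (95% interval 0.77 to 2.25). Against histidine the log2 read ratio was 0.84 (0.23 to 1.46) and against 6-MP 0.86 (0.25 to 1.49). The single agents had log2 read ratios to vehicle of 0.65 (-0.13 to 1.46) for histidine and 0.62 (-0.16 to 1.44) for 6-MP, so a difference was not detectable at this depth.

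FOSL2 (ENSG00000075426, chr2:28392448-28417317, plus strand), which encodes the FOS family protein Fra-2, had 0.683, 0.685 and 0.701 FPKM in vehicle, histidine and 6-MP and 1.32 in the combined treatment, from 70, 76, 77 and 122 reads. The 3 other libraries were level with each other and the combined treatment stood above all of them. Its log2 read ratio was 0.95 (0.52 to 1.40) against vehicle, 0.95 (0.52 to 1.38) against histidine and 0.91 (0.49 to 1.35) against 6-MP. FOSB (ENSG00000125740, chr19:45467995-45475179, plus strand), a FOS family gene known for its stable splice form in neurons, had 0.239, 0.256, 0.235 and 0.419 FPKM, from 19, 22, 20 and 30 reads. The combined treatment was again the highest, but the interval of its log2 read ratio to vehicle, 0.81 (-0.07 to 1.72), includes 0. FOSB lies wholly within the position of ERCC1, a DNA repair gene on the opposite strand that had 11.8 to 13.0 FPKM, and the strand setting of the counting is not given in the sources used here, so reads of the overlap cannot be assigned to one of them with certainty.

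Summed over FOS, FOSB and FOSL2, without FOSL1, the reads were 112 in vehicle, 137 in histidine, 135 in 6-MP and 210 in the combined treatment. The summed reads of the combined treatment were 2.08-fold those of vehicle, or 1.06 on the log2 scale (0.72 to 1.40), with 0.88 (0.56 to 1.20) against histidine and 0.89 (0.57 to 1.21) against 6-MP. The sum was similar in both single agents, whose intervals against vehicle include 0.

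The 3 JUN genes differed from each other more than the FOS genes did. JUN (ENSG00000177606, chr1:58776845-58784048, minus strand), the founding member and the strongest activator of the family, had 1.89 FPKM in vehicle, 2.08 in histidine, 1.80 in 6-MP and 4.98 in the combined treatment, from 98, 117, 100 and 233 reads. Vehicle, histidine and 6-MP overlapped in their counting intervals and the combined treatment stood apart from all 3. The difference of log2(FPKM + 1) was 1.05 against vehicle, 0.96 against histidine and 1.10 against 6-MP, so the value against histidine lay just under the threshold. Without a pseudocount, the read ratio was 2.64-fold against vehicle, or 1.40 on the log2 scale (1.05 to 1.76), with 1.26 (0.93 to 1.59) against histidine and 1.47 (1.13 to 1.82) against 6-MP. The single agents had log2 read ratios to vehicle of 0.14 (-0.26 to 0.54) for histidine and -0.07 (-0.49 to 0.35) for 6-MP.

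JUND (ENSG00000130522, chr19:18279694-18281622, minus strand), the JUN gene that most cells express steadily, had 20.6 FPKM in vehicle, 24.3 in histidine, 29.6 in 6-MP and 32.2 in the combined treatment, from 570, 725, 876 and 802 reads. Its order was unlike that of JUN, since 6-MP alone lay close to the combined treatment. The log2 read ratio to vehicle was 0.23 (0.07 to 0.39) for histidine, 0.52 (0.37 to 0.67) for 6-MP and 0.64 (0.49 to 0.80) for the combined treatment. Against 6-MP the combined treatment had a log2 read ratio of 0.12 (-0.02 to 0.26), which turned to -0.025 when the libraries were scaled by their median ratio to the geometric mean. Among protein-coding genes of 20 to 100 FPKM, 90% had a log2 read ratio of 6-MP to vehicle under 0.12, and that of JUND, 0.52, was above this.

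JUNB (ENSG00000171223, chr19:12791486-12793315, plus strand), which is a weaker activator than JUN and can oppose it, had 22.7, 23.5, 25.04 and 21.3 FPKM in vehicle, histidine, 6-MP and the combined treatment, from 594, 667, 703 and 503 reads. The combined treatment was its lowest library and 6-MP its highest. The log2 read ratio of the combined treatment was -0.09 (-0.26 to 0.08) against vehicle, or -0.25 (-0.42 to -0.07) under median-ratio scaling, and -0.23 (-0.40 to -0.07) against 6-MP. JUNB lies within HOOK2, a gene on the opposite strand that had 5.75 to 7.47 FPKM, with its highest value in the combined treatment.

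The makeup of the JUN family mRNA thus differed between libraries. Of the summed FPKM of the 3 genes, JUN made up 4.18% in vehicle, 4.18% in histidine, 3.19% in 6-MP and 8.52% in the combined treatment. JUNB made up 50.2% in vehicle and 36.4% in the combined treatment, and JUND 45.7% and 55.1%. The summed FPKM of the JUN genes was set against that of FOS, FOSB and FOSL2, with FOSL1 left out. It was 31.7 times as high in vehicle, 28.8 times in histidine, 32.9 times in 6-MP and 18.6 times in the combined treatment. In each library the JUN genes far outweighed these FOS genes, and the ratio was lowest in the combined treatment. The summed reads of the JUN family had a log2 ratio to vehicle of 0.14 (0.04 to 0.25) in histidine, 0.31 (0.21 to 0.42) in 6-MP and 0.44 (0.33 to 0.54) in the combined treatment.

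**Figure D2:**
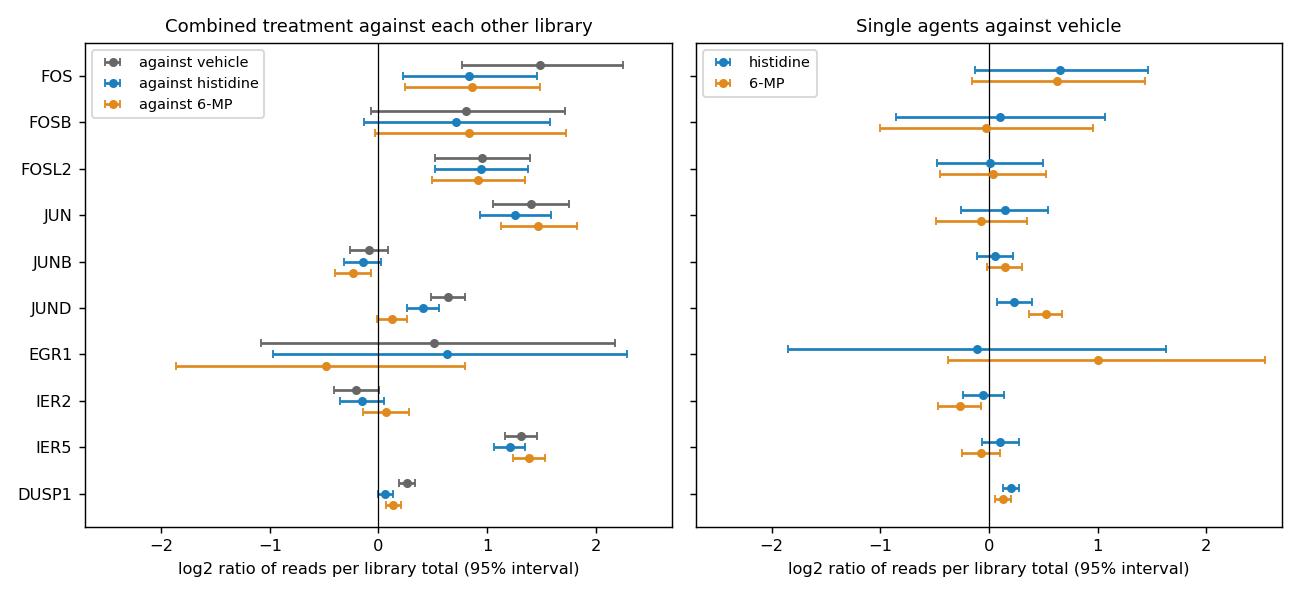
Log2 ratios of reads per library total, with 95% intervals as horizontal bars, for the combined treatment against each other library (left) and for the single agents against vehicle (right). JUN and IER5 lie above 0.9 in all 3 comparisons on the left and near 0 on the right, while JUND and DUSP1 lie above 0 on the right for both agents.

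IER5 (ENSG00000162783, chr1:181088700-181092900, plus strand), an immediate early gene that is also known as a target of p53 and of heat shock factor 1, had the widest range of log2(FPKM + 1) of the genes past the minimum level, while by read ratio the range of JUN was wider. It had 8.75 FPKM in vehicle, 9.39 in histidine, 8.32 in 6-MP and 21.7 in the combined treatment, from 526, 611, 536 and 1176 reads. The combined treatment stood far above the other 3 libraries, which lay close together. The difference of log2(FPKM + 1) was 1.22 against vehicle, 1.13 against histidine and 1.28 against 6-MP. The read ratio to vehicle was 2.48-fold, or 1.31 on the log2 scale (1.16 to 1.46), and the single agents had log2 read ratios of 0.10 (-0.07 to 0.27) for histidine and -0.07 (-0.25 to 0.10) for 6-MP.

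IER2 (ENSG00000160888, chr19:13150411-13154911, plus strand), a related gene of the same small family, had another pattern, with 10.2, 9.86, 8.49 and 8.89 FPKM in vehicle, histidine, 6-MP and the combined treatment, from 451, 470, 401 and 353 reads. Its 2 libraries with 6-MP were the lowest. The log2 read ratio to vehicle was -0.27 (-0.47 to -0.07) for 6-MP and -0.20 (-0.41 to 0.0011) for the combined treatment, which became -0.36 (-0.56 to -0.16) under median-ratio scaling. Against 6-MP the combined treatment had a log2 read ratio of 0.07 (-0.14 to 0.28), or -0.08 under median-ratio scaling.

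EGR1 (ENSG00000120738, chr5:138465479-138469303, plus strand), a zinc finger transcription factor that growth factors and antigen receptors induce, was the lowest of the 10. It had 0.156, 0.144, 0.312 and 0.222 FPKM in vehicle, histidine, 6-MP and the combined treatment, from 7, 7, 15 and 9 reads. The interval of each of its log2 read ratios includes 0, for example 0.51 (-1.08 to 2.17) for the combined treatment against vehicle and 1.00 (-0.38 to 2.54) for 6-MP against vehicle. No difference of EGR1 between libraries was detectable at this depth.

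DUSP1 (ENSG00000120129, chr5:172768096-172771195, minus strand) was the most abundant of the 10, at place 297 of 15471 protein-coding genes in vehicle and 188 in the combined treatment. It had 94.1 FPKM in vehicle, 107.9 in histidine, 102.6 in 6-MP and 112.9 in the combined treatment, from 2712, 3365, 3168 and 2931 reads. All 3 treated libraries lay above vehicle, by small ratios whose counting intervals are narrow. The log2 read ratio to vehicle was 0.20 (0.12 to 0.27) for histidine, 0.12 (0.05 to 0.20) for 6-MP and 0.26 (0.19 to 0.34) for the combined treatment. Against the single agents the combined treatment had log2 read ratios of 0.065 (-0.0074 to 0.14) for histidine and 0.14 (0.07 to 0.21) for 6-MP, and both turned negative under median-ratio scaling, to -0.068 and -0.0098. A lncRNA on the opposite strand, ENSG00000253736, covers DUSP1 but had only 3 to 8 reads.

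Histidine and 6-MP were each given alone and together, so the log2 read ratio of the combined treatment can be set against the sum of those of the single agents. The departure from this sum was 1.33 for JUN (95% interval 0.81 to 1.84 by the delta method on the reads), 1.28 for IER5 (1.06 to 1.505) and 0.91 for FOSL2 (0.29 to 1.53). For FOS it was 0.21 (-0.74 to 1.16). For JUND it was -0.11 (-0.32 to 0.10), for DUSP1 -0.06 (-0.16 to 0.04) and for IER2 0.12 (-0.16 to 0.40), and for JUNB it was -0.29 (-0.52 to -0.06). Of the 18333 genes with a mean of at least 0.1 FPKM and reads in all libraries, the interval of the departure lay above 0 in 29.7% and below 0 in 14.7%. In protein-coding genes of the level of FOSL2 the median departure was 0.63 and the 75th percentile 1.43, so the value of FOSL2 is within the usual range there. The 90th percentile was 1.12 at the level of JUN and 0.65 at that of IER5, and both genes lay above it. Under median-ratio scaling the departure of JUND was -0.23 (-0.44 to -0.02) and that of DUSP1 -0.18 (-0.29 to -0.08), both then below 0, while JUN, IER5 and FOSL2 stayed above 0.

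The median ratio of the combined treatment to vehicle was lower in each higher class of expression level, so each gene was set beside the protein-coding genes of its own level. Between 0.1 and 1 FPKM, where FOS, FOSB, FOSL2 and EGR1 lie, the median log2 read ratio of the combined treatment to vehicle was 0.74. The 25th and 75th percentiles over the 2407 genes with reads in both libraries were 0.15 and 1.53. All 4 genes lie between these percentiles, FOS near the upper one. Between 1 and 5 FPKM the median was 0.33 and 90% of 3262 genes were under 1.17, and JUN, at 1.40, was above this. Between 5 and 20 FPKM the median was 0.12 and 90% of 4583 genes were under 0.68, with IER5 at 1.31 above it and IER2 at -0.20 below the 25th percentile of -0.12. Between 20 and 100 FPKM the median was -0.08, with JUND at 0.64 above the 90th percentile of 0.45 and JUNB at -0.09 near the median. At 100 FPKM and over the median was -0.23 and the 90th percentile 0.26, which is where DUSP1 lay, with 0.26. What sets this trend with level was not tested.

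**Figure D3:**
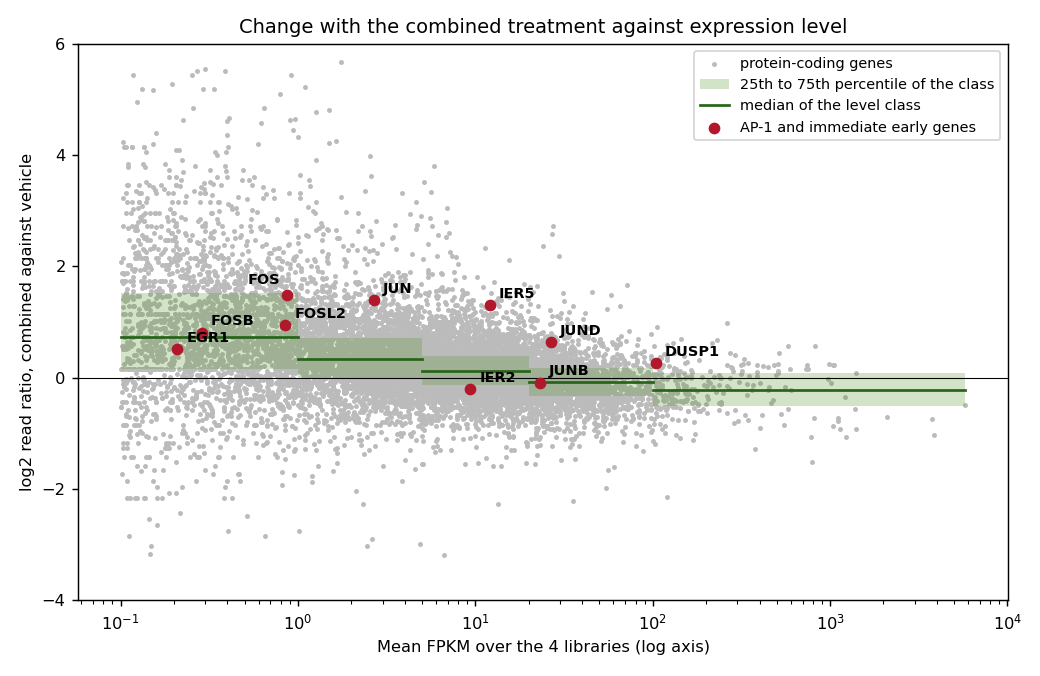
Log2 read ratio of the combined treatment to vehicle against mean FPKM (log axis) for 12404 protein-coding genes (grey, 5 more lie outside the axis) and the 10 genes (red), with the median and the 25th to 75th percentiles of each level class in green. JUN, IER5, JUND and DUSP1 lie above the 75th percentile of their class, and FOS, FOSB, FOSL2 and EGR1 lie between the 25th and 75th percentiles of theirs.

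The genes whose pattern over the 4 libraries was most like that of IER5, by Euclidean distance of centred log2(FPKM + 1) among 6734 protein-coding genes whose mean reached 5 FPKM, were PLK3, ELF4 and ALOX5AP. The distance was 0.043 for PLK3, 0.052 for ELF4 and 0.054 for ALOX5AP. PLK3, a stress-responsive kinase, had 3.70, 4.08, 3.62 and 10.4 FPKM in vehicle, histidine, 6-MP and the combined treatment. ELF4, an ETS transcription factor, had 5.68, 6.04, 5.51 and 14.1 FPKM, and ALOX5AP, which serves leukotriene synthesis, had 4.07, 4.65, 3.88 and 11.3 FPKM. PLK3 and ALOX5AP were under 5 FPKM in each library but that of the combined treatment, so they reached the mean of 5 FPKM only through it. The likeness is over 4 libraries and is a description.

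The partners, regulators and targets of these genes were described with lists of names. Of 14 other genes whose products dimerize with JUN or FOS proteins, 13 had a row and 8 the minimum level. Against vehicle, 2 of the 8 lay past the threshold in the combined treatment, both higher, beside 6.53% of all 12750 genes. The median difference of the 8 was 0.34. ATF3, a stress-induced partner of JUN proteins, had 2.66 FPKM in vehicle, 3.24 in histidine, 2.58 in 6-MP and 11.7 in the combined treatment, a difference of log2(FPKM + 1) to vehicle of 1.80. JDP2, a repressor that dimerizes with JUN proteins, had 1.48, 1.81, 1.44 and 4.48 FPKM, a difference of 1.14. Both resembled JUN in that the other 3 libraries lay close together.

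Of 28 other immediate early genes, 26 had a row and 16 the minimum level. Of the 16, 2 lay past the threshold, both higher, beside 6.53% of all genes. The median over the 16 was 0.18, close to the 0.13 of all genes. BTG2, an antiproliferative gene induced by p53, had 12.1 FPKM in vehicle, 10.6 in histidine, 12.8 in 6-MP and 72.4 in the combined treatment, a difference of 2.48. ZFP36L1, which encodes a protein that binds AU-rich mRNA and hastens its decay, had 15.8, 16.2, 17.6 and 33.3 FPKM, a difference of 1.03. The combined treatment was the highest library for both. The intervals of read ratios lay above 0 for 9 and below 0 for 4 of the 23 genes of this list whose mean reached 0.1 FPKM, beside 34.1% above and 13.2% below among all genes.

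The same threshold was applied to genes upstream of these. In the combined treatment against vehicle, 6.53% of all 12750 genes lay past it. A count of 0 in lists as short as these is close to that share. Of 17 genes of the MAP kinase cascade, 16 had the minimum level and none lay past the threshold in the combined treatment against vehicle, with a median of 0.03 and values from -0.45 for MAP2K3 to 0.76 for MAPK11. None of the 10 SRF cofactor and CREB genes lay past it. Their median was 0.12, with values from -0.22 for CREB1 to 0.42 for CRTC3. SRF itself, counted in the list of immediate early genes, had a difference of -0.31. None of the 2 EGR1 corepressors, NAB1 and NAB2, lay past the threshold. Of 9 other MAP kinase phosphatases 5 had a row and 2 the minimum level, of which DUSP6 had 39.8, 39.1, 41.1 and 52.1 FPKM and DUSP7 9.04, 8.68, 9.04 and 8.27. Of 12 classical AP-1 targets 8 had a row and 4 the minimum level, and TIMP1, an inhibitor of matrix metalloproteinases, lay past the threshold with 4.64, 5.09, 5.27 and 15.7 FPKM and a difference of 1.57. Histidine alone and 6-MP alone took no gene of these lists past the threshold, beside 1.33% and 1.18% of all genes.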

How the data were processed

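Per the labels, poly(A) RNA of 4 cultures of Reh-6-MPR cells was sequenced with a stranded mRNA kit, 1 library per treatment. The authors deposited FPKM per gene. The submitters' processing notes name Trimmomatic, HISAT2, HTSeq, Cufflinks and hg38 (GRCh38), and the annotation release and strand setting of the counting are not given in the sources used here. FPKM share 1 library total, so abundant genes that differ shift all others.

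Reads were recovered from the steps of the FPKM values and came out whole, within 0.002, in all libraries for 29828 of 29833 genes. The authors used DESeq2 for differential expression, which was not repeated without replicates. Differences of log2(FPKM + 1) past 1 were counted among genes whose mean FPKM reached 1, read ratios were given exact Clopper-Pearson 95% intervals, and a floor of 3 reads was used for genes at 0. The lower bound of 0.1 FPKM for counts of intervals was chosen after the values were seen. The 10 genes, the lists and the tests were chosen with earlier results of these data known. All 10 genes are named, with up to 4 genes per list past the threshold in a comparison of the combined treatment, the ends of the MAP kinase range and, for likeness, 3 genes. Any other gene was named after its values were seen. Promoters came from RefSeq (GRCh38.p14) and matched all 10 genes. The alternatives, 7 in all, were a pseudocount of 0.1, no filter, a mean FPKM of at least 5, median-ratio scaling, scaling to a common total (TPM), a threshold of 1.5 and, for the counts over all genes, protein-coding genes only. Another, read ratios without a pseudocount, was added after the values were seen. The scripts were tested on simulated data, with scipy 1.17.1, pandas 2.3.3, numpy 2.4.6 and matplotlib 3.10.9 in Python 3.11.15.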

Additional observations from a re-analysis of the deposited data

How the results depend on the processing

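The number of the 10 genes past the threshold was 2, 1 and 2 for the combined treatment against vehicle, histidine and 6-MP. Against histidine it was 2 with a pseudocount of 0.1, 2 with TPM scaling and 2 with read ratios without a pseudocount, an alternative chosen after seeing the data. With a mean FPKM of at least 5 it was 1 against vehicle and 1 against 6-MP, since JUN is left out. With median-ratio scaling it was also 1 and 1, with JUN at 0.93 against vehicle and 0.98 against 6-MP, and IER5 stayed past the threshold in all 3 comparisons. With a threshold of 1.5 it was 0, 0 and 0. For the single agents it was 0 under every alternative run.

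Median-ratio scaling lowers the combined library against the others, with log2 factors of 0.12 for it and -0.04 to -0.02 for the rest. Of all genes, 639 were higher and 193 lower than in vehicle, and 462 and 275 under this scaling, with 529 and 178 against 403 and 247 for histidine and 614 and 153 against 433 and 225 for 6-MP. The count over all genes for the combined treatment against vehicle, 832, was 1513 with a pseudocount of 0.1, 303 with a mean FPKM of at least 5, 3106 with TPM scaling, 266 with a threshold of 1.5, 422 for protein-coding genes alone and 1529 with read ratios. No paired analysis was possible because no treatment has more than 1 library, and for the same reason no replicate could be left out. Depth limits FOS, FOSB and EGR1, with 7 to 58 reads per library.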

Other observations

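A few low immediate early and AP-1 dimer genes, picked after their values were seen, had more reads in the combined library than in the others. SGK1, a kinase induced by serum and glucocorticoids, had 0.378 FPKM in vehicle, 0.440 in histidine, 0.418 in 6-MP and 1.17 in the combined treatment, 3.10-fold that of vehicle (95% interval 2.26 to 4.32). A ratio to vehicle of at least 2-fold was common at this level, in 40.3% of the 2407 protein-coding genes between 0.1 and 1 FPKM with reads in both libraries. NR4A2, an orphan nuclear receptor, had 0.758, 0.717, 0.888 and 1.74 FPKM, 2.30-fold (1.58 to 3.39). Its mean, 1.03 FPKM, reached the class of 1 to 5 FPKM only through the combined treatment. A ratio of at least 2-fold was found in 14.2% of the genes of that class, and in 40.3% of the class below. MAF, a bZIP factor of the wider AP-1 superfamily, had 0, 1, 0 and 23 reads. The combined treatment had 8.51-fold the floor of 3 reads in vehicle, a value without counting error. The 95% interval of its log2 read ratio to vehicle had a lower end of 2.67. ARC, known as an immediate early gene of neurons, had 1, 0, 0 and 13 reads. Its ratio to vehicle was 14.4 (2.17 to 613), or 4.81 against the floor of 3 reads. MAF and ARC lie under a mean of 0.1 FPKM, where no share over all genes was taken. More genes had reads in the combined treatment, 25443, than in vehicle, 23635.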
